A study of Drosophila melanogaster with 18 samples.

Results

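The cytosolic ribosomal protein genes of Drosophila melanogaster were followed across 6 groups of libraries from DL1 cells. They were taken by name as every entry of the count table whose FlyBase symbol starts with RpL or RpS, and no measured value entered that choice. This gave 92 of 17753 entries, of which 50 belong by name to the large subunit, 4 to its stalk (RpLP0, RpLP1, RpLP2 and RpLP0-like) and 38 to the small subunit. Names alone set these groups, so a -like gene need not encode a part of the finished ribosome. A pair of genes known to encode small-subunit proteins under other names, sta and Rack1, is given beside the 92 entries.

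DL1 is a haemocyte-like fly cell line, labelled as wild type, and 500000 cells at a time received 2 µg of dsRNA (double-stranded RNA) in their medium and were cultured for 3 days. Fly cells take up dsRNA and use it for RNA interference. The dsRNAs were directed against IntS4 or IntS6, which encode subunits of the RNA-cleaving Integrator complex, or against mts or Pp2A-29B, which encode the catalytic and the scaffold subunit of protein phosphatase 2A (PP2A). The control dsRNA was directed against the bacterial B-gal gene, and Mock cells went through a mock treatment. Each of the 6 groups had 1 library in each of 3 sets (A, B and C) that the design text calls biological replicates. RNA was depleted of ribosomal RNA (rRNA) before strand-specific sequencing, and all libraries come from 1 cell line, so p-values measure the spread between these cultures.

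Each cytosolic ribosome carries 1 copy of nearly every ribosomal protein, and the genes of both subunits are usually transcribed at similar, high rates. In flies and other animals their output is tied to growth through the TOR kinase and Myc, and many of the genes carry small nucleolar RNA (snoRNA) genes in their introns. Flies with a single working copy of such a gene are known as Minute mutants, which develop slowly. Several of the genes have another copy that in flies is known mainly from the germ line, among them RpL22-like, RpS5b, RpS10a and RpS19b.

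Library totals ran from 13445318 to 19298644 estimated counts, of which 138 rRNA entries took 65.1 to 74.8% and all remaining genes 3545828 to 6325688 counts. The mts libraries had the highest rRNA share, 73.0 to 74.8%, where the B-gal libraries had 66.3 to 71.8%. Replicate libraries correlated at 0.98 to 0.994, and no pair of libraries held identical values. The targeted transcript averaged 64.0 ± 15.4 CPM with mts dsRNA against 150 ± 16.3 with B-gal dsRNA, and 45.9 ± 3.68 CPM with Pp2A-29B dsRNA against 157 ± 8.11 (SD, n = 3). In the libraries labelled IntS4 and IntS6 dsRNA the targeted transcripts were instead higher, at 98.8 ± 111 against 12.1 ± 0.191 CPM for IntS4 and 83.9 ± 57.6 against 29.8 ± 3.26 CPM for IntS6, so these groups are named here by their labels. CPM are counts per 1000000 of the total of a library, with rRNA in the total and the total multiplied by its TMM normalisation factor. The defining haemocyte factor srp was present at 122 CPM with B-gal dsRNA, whereas PPO1, PPO2, Sr-CI, lz and NimC1 lay at or below 0.25 CPM there. The summed level of 16 haemocyte markers was 1120 to 1580 CPM with IntS4, 991 to 1300 with IntS6, 631 to 857 with mts and 484 to 613 with Pp2A-29B dsRNA, against 288 to 315 with B-gal dsRNA and 287 to 314 in Mock cells. Much of this came from Hml, whose group means ran from 63.5 to 609 CPM with these dsRNAs against 2.86 CPM with B-gal dsRNA, and PPO3, from 52.3 to 209 CPM against 5.69 CPM, whereas srp and ush were called higher with IntS4 and IntS6 dsRNA and not called with mts or Pp2A-29B dsRNA. With mts and Pp2A-29B dsRNA He averaged 150 and 99.1 CPM (31.9 with B-gal dsRNA), eater 78.3 and 90.9 (44.2) and atilla 51.7 and 14.4 (0.563). All of these were called higher there, and with IntS4 and IntS6 dsRNA only He of them was. For 8 markers of other cell types the sum stayed between 56.5 and 73.9 CPM in all libraries, mostly from Mef2 and elav, with Lsp2, vas and twi at 0 with B-gal dsRNA. Of the 3 of these 8 that were tested, the neuronal gene elav was higher with IntS4 (log2 fold change 0.34) and IntS6 dsRNA (0.78), and the muscle myosin gene Mhc was higher with IntS4, IntS6 and Pp2A-29B dsRNA, at averages of 2.07, 1.09 and 0.345 CPM, against 0.0602 CPM with B-gal dsRNA. What part these markers or the rRNA share have in the results below was not tested.

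The ribosomal protein genes took a smaller share of the cell's other RNA with each of the 4 dsRNAs. Of all counts outside rRNA they held 8.86, 8.37 and 7.18% in IntS4 sets A, B and C, 7.90, 7.15 and 7.36% in the IntS6 libraries, 7.06, 7.42 and 5.41% in the mts libraries and 7.32, 7.36 and 6.56% in the Pp2A-29B libraries. In the B-gal libraries they held 11.8, 10.0 and 8.87%, and in the Mock libraries 12.1, 10.8 and 9.56%. All 12 libraries with those dsRNAs lay below all 6 control libraries, although the IntS4 library of set A and the B-gal library of set C were almost level. In both control groups set A was highest and set C lowest. Group means were 8.14 ± 0.87% with IntS4, 7.47 ± 0.39% with IntS6, 6.63 ± 1.07% with mts and 7.08 ± 0.45% with Pp2A-29B, against 10.2 ± 1.46% with B-gal dsRNA and 10.8 ± 1.29% in Mock cells (SD, n = 3 each). These are descriptions of a summed share, with no test, and in bulk RNA fewer cells of a type and less RNA per cell cannot be told apart.

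The balance between the subunits is given next, again with no test. Small-subunit counts divided by large-subunit and stalk counts gave 0.600 to 0.615 with IntS4 and 0.589 to 0.625 with IntS6 dsRNA, 0.647 to 0.655 with mts and 0.642 to 0.658 with Pp2A-29B dsRNA, and 0.631 to 0.648 with B-gal dsRNA and 0.633 to 0.649 in Mock cells. The 6 Integrator-labelled libraries all lay below the 6 control libraries, and the mts and Pp2A-29B libraries overlapped the upper end of the controls.

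**Figure D1:**
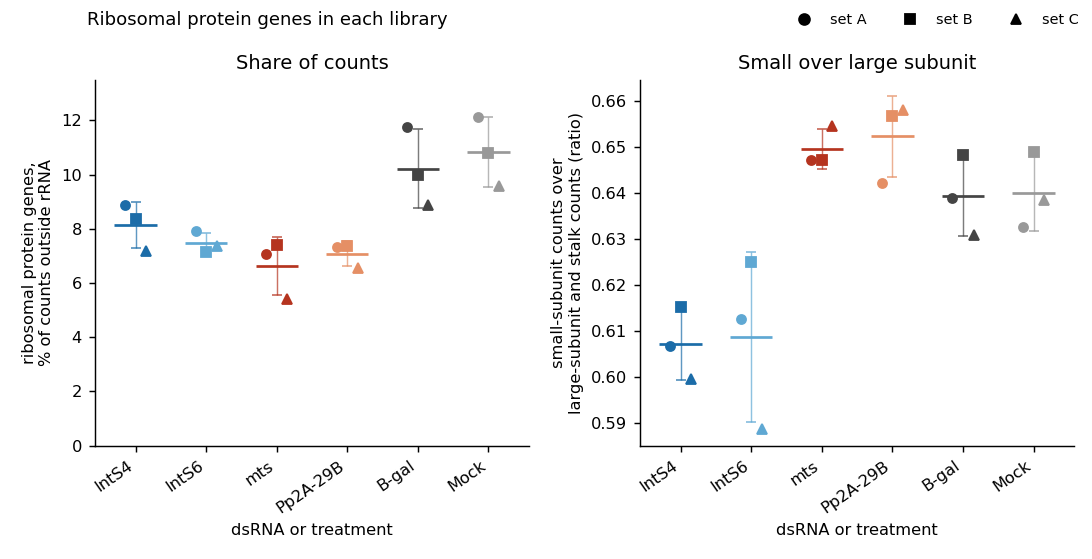
Share of ribosomal protein genes in counts outside rRNA (left, percent) and the ratio of small-subunit counts to large-subunit and stalk counts (right, axis not from 0) in each library. Points are libraries by set, lines are means and bars are SD (n = 3); the 12 libraries with IntS4, IntS6, mts or Pp2A-29B dsRNA lie at 5.41 to 8.86% and the 6 control libraries at 8.87 to 12.1%.

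The level of single members covered a wide range. Per kilobase of exon, RpS24, a small-subunit protein, was highest with B-gal dsRNA at 1290 ± 16.8 CPM per kb, followed by RpL4, which lines part of the peptide exit tunnel, at 1120 ± 40.3. RpL40, made as a fusion with ubiquitin and cleaved into a large-subunit protein, had 869 ± 60.3 CPM per kb (SD, n = 3). At the other end, RpS19b had 4.26 ± 1.02 CPM per kb. A filter on low counts left 85 of the 92 members for testing among 8699 genes. The 7 members removed were RpL10Aa (1 count in all 18 libraries together), RpL22-like (0), RpL37-2 (8), RpS10a (7), RpS28-like (2), RpS28a (2) and RpS5b (93 counts, seen in 16 libraries). A library's 3 counts, the limit that a count of 0 allows, correspond to 0.155 to 0.223 CPM, and such limits cover counting error only.

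With IntS4 dsRNA few ribosomal protein genes passed the test. A gene is called here when its adjusted p is under 0.05 in edgeR's quasi-likelihood F test (Benjamini-Hochberg over all genes tested). Of the 85 members, 14 were lower and 0 higher than with B-gal dsRNA, or 16.5%, where 20.2% of all genes tested were lower and 27.0% higher, so the count of lower members stands below the background. The median log2 fold change was -0.18 over the members and -0.01 over all genes, and 73 of 85 members had a negative value. RpL34a, one of the paired copies of a large-subunit gene, had (sets A, B and C in this order, here and below) 36.4, 32.0 and 25.6 CPM with IntS4 dsRNA, against 62.9, 45.7 and 41.2 CPM with B-gal dsRNA. Its 3 IntS4 libraries all lay below the 3 B-gal libraries, and its log2 fold change of -0.67 (SE 0.17, adjusted p = 0.00258) was the lowest of the members. RpS27A, like RpL40 a ubiquitin fusion but for the small subunit, had 237.5, 225.9 and 202.7 CPM with IntS4 dsRNA, against 345.0, 339.9 and 316.5 CPM with B-gal dsRNA. It fell by 0.59 on the log2 scale (SE 0.12, adjusted p = 0.00058), again with no overlap of the groups. RpLP0, which anchors the stalk that recruits translation GTPases, had 516, 474.5 and 399 CPM with IntS4 dsRNA, against 778, 672 and 516 CPM with B-gal dsRNA. The highest IntS4 library lay just below the lowest B-gal library, and RpLP0 fell by 0.50 on the log2 scale (SE 0.19, adjusted p = 0.0395). Among the others called were RpS12, RpS16, RpS24, RpS28b, RpS29, RpL7A, RpL31, RpL36, RpL39 and RpL40. When the replicate sets, which pair these libraries, entered the fit as a block, 29 members (34.1%) were lower, where 23.1% of all genes were, and without the set A library of B-gal 7 of 86 tested (8.14%) were, with 17.8% of all genes. RpLP0 lost its call when the B-gal library of set A or B, or the IntS4 library of set B or C, was left out (adjusted p = 0.0725 to 0.171).

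With IntS6 dsRNA 44 of 85 members (51.8%) were lower and 0 higher, where 19.3% of all genes tested were lower and 26.4% higher. The median log2 fold change was -0.38 over the members, against -0.01 over all genes. RpL34a had 33.1, 29.1 and 27.1 CPM with IntS6 dsRNA, against the 41.2 to 62.9 CPM of the B-gal libraries (log2 fold change -0.74, SE 0.17, adjusted p = 0.0012). RpS29, a zinc-binding protein of the small subunit's head, had 330, 336 and 288 CPM with IntS6 dsRNA, against 524, 557.5 and 473 CPM with B-gal dsRNA. RpS29 was thus lower in each IntS6 library than in any B-gal library, and fell by 0.70 on the log2 scale (SE 0.13, adjusted p = 0.000263). RpS27A had 227, 220.1 and 178 CPM with IntS6 dsRNA and again did not overlap the B-gal libraries (log2 fold change -0.68, SE 0.12, adjusted p = 0.000152). With the replicate sets, which pair these libraries, as a block 60 members (70.6%) were lower, where 22.6% of all genes were. Without the B-gal library of set A 22 of 86 members (25.6%, with 17.2% of all genes) were lower. Without the IntS6 library of set B 26 members were lower, a count for which no share over all genes is given here.

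With mts dsRNA 56 of 85 members (65.9%) were lower and 0 higher, where 24.8% of all genes tested were lower and 26.6% higher. The median log2 fold change was -0.52, against 0.00 over all genes, and 84 of 85 members had a negative value. RpL3, a core protein of the peptidyl transferase centre (chromosome 3R, 11221894 to 11225173, plus strand, BDGP6), had 556, 586 and 433 CPM with mts dsRNA, against 1185, 990.1 and 935 CPM with B-gal dsRNA. All mts libraries lay far below the B-gal libraries, and RpL3 fell by 0.98 on the log2 scale (SE 0.12, adjusted p = 2.57e-06). RpS12, a small-subunit protein that in flies is known for its part in the competition between Minute and normal cells, had 156, 157 and 124 CPM with mts dsRNA, against 285, 268 and 266.5 CPM with B-gal dsRNA. It fell by 0.90 (SE 0.09, adjusted p = 2.96e-07), with no overlap. RpS24 had 486, 485 and 385 CPM with mts dsRNA, against 830.5, 845 and 824 CPM with B-gal dsRNA, and fell by 0.88 on the log2 scale (SE 0.12, adjusted p = 1.1e-05). The mts library of set C was the lowest of its group for all 3 genes, as it was for the summed share. With the replicate sets, whose pairing of the mts and B-gal libraries is uncertain, as a block 69 members (81.2%) were lower, where 27.3% of all genes were. Leaving out the B-gal library of set A gave 42 of 86 members lower (48.8%, with 22.7% of all genes).

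With Pp2A-29B dsRNA 63 of 85 members (74.1%) were lower and 0 higher, where 17.8% of all genes tested were lower and 21.0% higher. The median log2 fold change was -0.53, against -0.01 over all genes. RpL3 had 530.1, 557 and 509 CPM with Pp2A-29B dsRNA, well under the B-gal libraries (log2 fold change -0.96, SE 0.12, adjusted p = 6.49e-06). RpL34b, the more abundant partner of RpL34a, had 42.3, 45.5 and 76.6 CPM with Pp2A-29B dsRNA, against 164, 97.7 and 84.0 CPM with B-gal dsRNA. The groups did not overlap, but sets A and C ran in opposite orders in them, and the log2 fold change of -1.07 had a large error (SE 0.32, adjusted p = 0.0112). RpL10Ab, a large-subunit protein beside the site where spent tRNA leaves, had 78.7, 78.4 and 99.1 CPM with Pp2A-29B dsRNA, against 201, 152 and 114 CPM with B-gal dsRNA. It also did not overlap (log2 fold change -0.86, SE 0.22, adjusted p = 0.00499). The RpL34b call was lost without the B-gal library of set A or the Pp2A-29B library of set A or B (adjusted p = 0.0504 to 0.0851), and without that B-gal library 40 of 86 members (46.5%, with 15.7% of all genes) were lower.

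**Figure D2:**
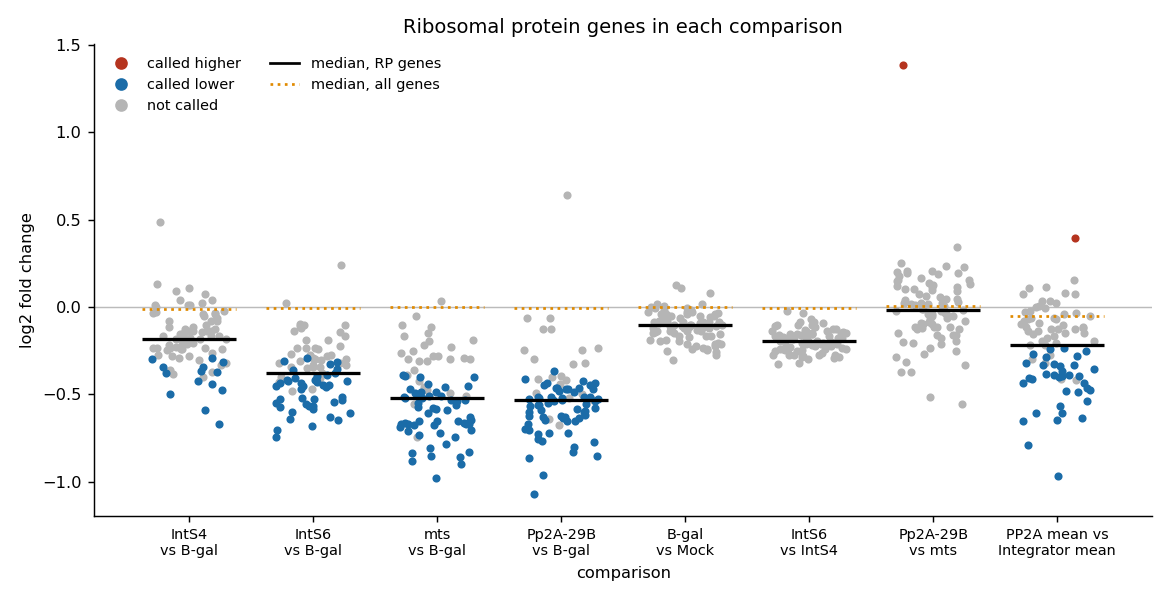
Log2 fold change (y axis) of the 85 tested ribosomal protein genes in each of 8 comparisons (x axis); colours show the call, the black line the members' median and the dotted line the median of all 8699 genes tested. Members' medians lie at -0.18, -0.38, -0.52 and -0.53 for IntS4, IntS6, mts and Pp2A-29B dsRNA against B-gal dsRNA, and no point is called higher there.

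The 4 comparisons share the same B-gal libraries, so a high B-gal library lowers all 4 sets of values at once. Since the members are abundant, they were also set beside other abundant genes. Among the 630 genes with a mean of at least 100 CPM, 71 were members, and of these 12 (16.9%) were lower with IntS4, 42 (59.2%) with IntS6, 53 (74.6%) with mts and 57 (80.3%) with Pp2A-29B dsRNA. The matching shares over all genes at that level were 27.9, 34.8, 38.6 and 35.2%. Every library with the dsRNA lay below every B-gal library for 20 members with IntS4, 52 with IntS6, 57 with mts and 63 with Pp2A-29B dsRNA, an arrangement seen in 23.9, 23.8, 28.1 and 22.8% of all 8699 genes.

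Members of both subunits were called against B-gal dsRNA. Of 47 large-subunit genes 7 were lower with IntS4, 22 with IntS6, 31 with mts and 38 with Pp2A-29B dsRNA, and of 34 small-subunit genes 6, 20, 23 and 24. In the same order 20.2, 19.3, 24.8 and 17.8% of all genes tested were lower. With IntS4 dsRNA both subunits thus stood below the background in this fit. With the replicate sets as a block, 34.1% of all tested members were instead lower with IntS4 dsRNA, beside 23.1% of all genes. With Mock as the control these shares were 30.6 and 19.9%, and without the B-gal library of set A 8.14 and 17.8%. Among the stalk genes RpLP1, a partner of RpLP0 in the stalk, was lower with IntS6, mts and Pp2A-29B dsRNA (log2 fold changes -0.57, -0.59 and -0.71). RpLP2, the other stalk partner, was called in none of the 4 and had log2 fold changes of -0.28, -0.48, -0.28 and -0.49 (SE 0.29 to 0.30). RpS6, the small-subunit protein that S6 kinase phosphorylates, was lower with mts (-0.51) and Pp2A-29B dsRNA (-0.53) and not called with IntS4 (-0.04) or IntS6 dsRNA (-0.24). Both ubiquitin fusions were lower in every comparison with B-gal dsRNA: RpL40 at -0.34, -0.55, -0.46 and -0.37, and RpS27A at -0.59, -0.68, -0.65 and -0.47, for IntS4, IntS6, mts and Pp2A-29B dsRNA.

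**Figure D3:**
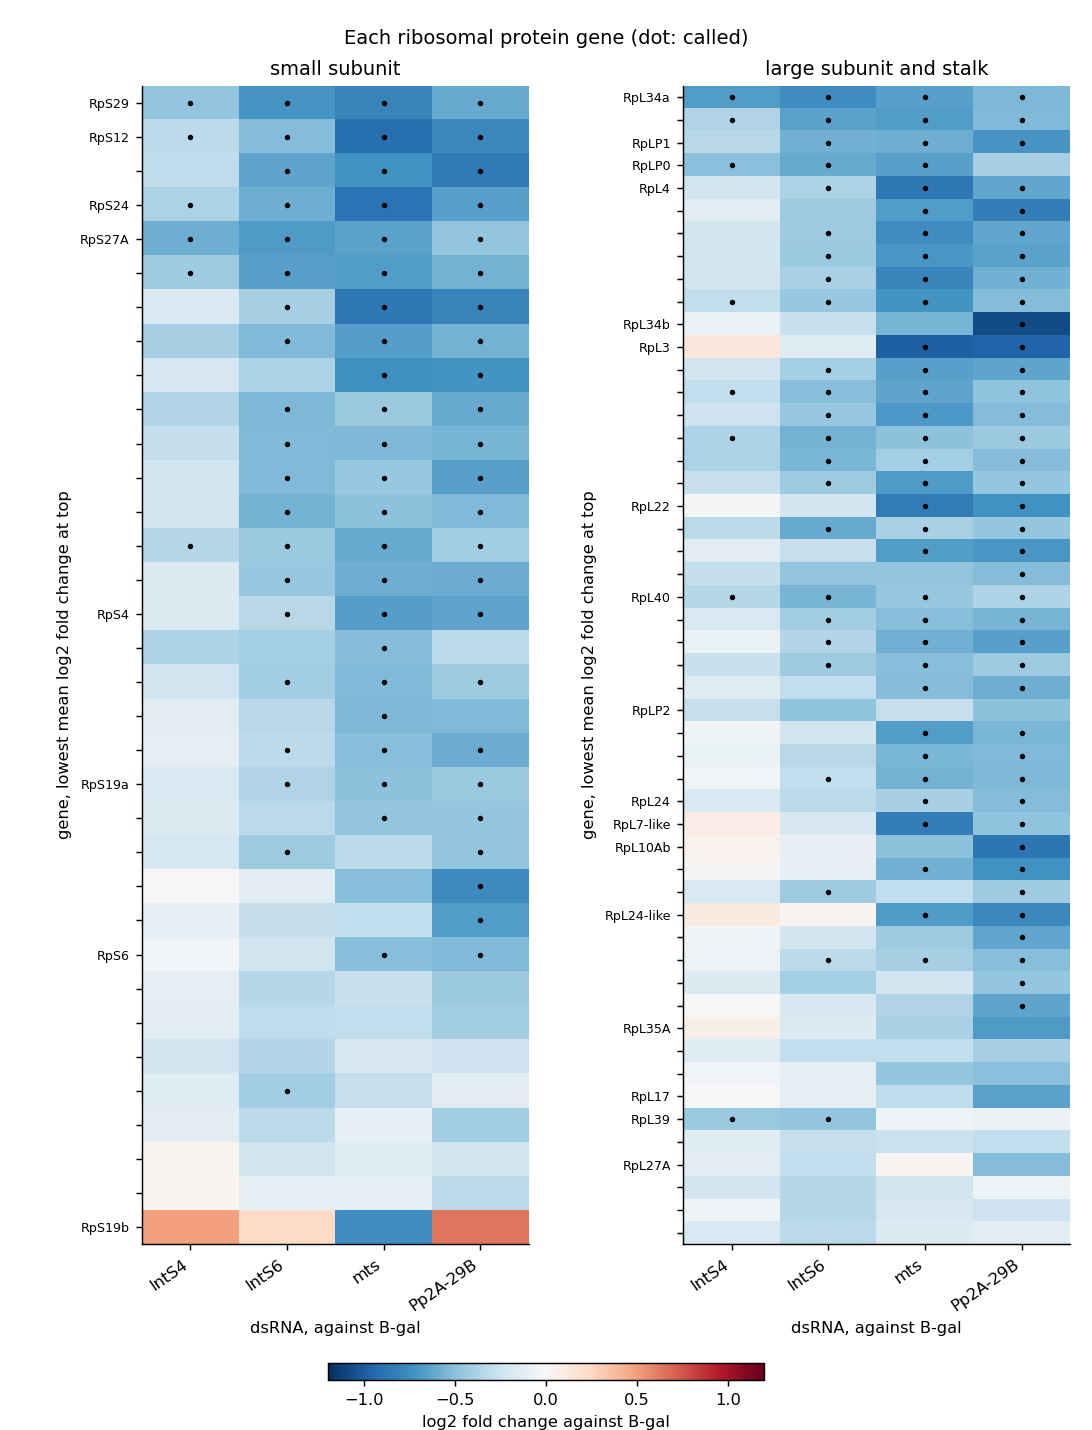
Log2 fold change against B-gal dsRNA (colour) of every tested ribosomal protein gene (down the page, sorted by the mean of the 4 values) with IntS4, IntS6, mts and Pp2A-29B dsRNA (columns), small subunit at left and large subunit with stalk at right. Names are given for some of the genes described in the text, and a dot marks a gene called at an adjusted p under 0.05; RpL3, RpL22 and RpL24-like are called only in the mts and Pp2A-29B columns, RpL39 only in the IntS4 and IntS6 columns.

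B-gal dsRNA itself was compared with Mock treatment. Of 85 members 0 were called lower and 0 higher, as were 0.0% of all genes in edgeR, with 0 members and 243 of all genes below 0.05 before adjustment. DESeq2 also called 0 members. The members' median log2 fold change was -0.10, against 0.00 over all genes, and 79 of 85 had a negative value. RpS12, for example, had 285, 268 and 266.5 CPM with B-gal dsRNA, against 298, 296.5 and 291 CPM in Mock cells (log2 fold change -0.11, SE 0.09, adjusted p = 1.0). With Mock in place of B-gal libraries as the control, a choice made after the data were seen, 26 members were lower with IntS4, 60 with IntS6, 69 with mts and 71 with Pp2A-29B dsRNA, where 19.9, 19.1, 23.6 and 17.3% of all genes were.

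The PP2A and Integrator dsRNAs were then compared directly, as the mean of mts and Pp2A-29B against the mean of IntS4 and IntS6. Of 85 members 36 (42.4%) were lower and 1 was higher, where 33.6% of all genes were lower and 26.0% higher. The members' median log2 difference was -0.22, against -0.06 over all genes, and 73 of 85 members had a negative value. Above a mean of 100 CPM, 31 of 71 members (43.7%) were lower, where 35.6% of all such genes were, so the count stands only a little above the background.

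RpL3 had the lowest log2 difference of the 85 members. Its level was 1189, 1121 and 1100.0 CPM with IntS4 and 960.1, 836 and 1025 CPM with IntS6 dsRNA, which overlapped the 935 to 1185 CPM of the B-gal libraries and the 1035 to 1231 CPM of the Mock libraries. Every mts and Pp2A-29B library, at 433 to 586 CPM, lay below all 12 others. Between PP2A and Integrator dsRNAs the log2 difference was -0.97 (SE 0.09, adjusted p = 1.75e-08). RpL3 holds 4 snoRNA genes and shares 412 exon bases with an antisense RNA gene on the other strand.

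RpL24-like, the fly counterpart of a factor that in yeast helps to assemble the large subunit, had 4.63, 6.99 and 5.83 CPM with mts and 4.76, 6.66 and 4.86 CPM with Pp2A-29B dsRNA, against 10.1, 9.96 and 9.97 CPM with IntS4 and 10.7, 7.73 and 9.81 CPM with IntS6 dsRNA. All 6 PP2A libraries lay below the 6 Integrator-labelled libraries, and the log2 difference was -0.79 (SE 0.15, adjusted p = 0.000218). Its B-gal libraries, at 12.1, 8.75 and 7.13 CPM, overlapped the Integrator-labelled ones. Its calls against B-gal dsRNA were lost without the B-gal library of set A, with adjusted p = 0.102 for mts and 0.06 for Pp2A-29B dsRNA, and for mts also without the mts library of set A (0.0847). RpL22, a large-subunit protein that shares 377 exon bases with an overlapping RNA gene on its strand, had 232, 225 and 190.4 CPM with mts and 237, 249 and 214 CPM with Pp2A-29B dsRNA, against 404, 382 and 352 CPM with IntS4 and 333, 320 and 331 CPM with IntS6 dsRNA. RpL22 again separated the groups (log2 difference -0.65, SE 0.07, adjusted p = 1.2e-07), and it is named here after its values were seen.

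RpL39, a very small protein beside the exit tunnel (exon length 288 bases), went the other way. It had 93.0, 90.1 and 78.6 CPM with mts and 97.3, 85.0 and 77.3 CPM with Pp2A-29B dsRNA, against 72.7, 69.3 and 57.7 CPM with IntS4 and 71.1, 65.2 and 59.9 CPM with IntS6 dsRNA. The lowest PP2A library lay above the highest Integrator-labelled library, and the log2 difference was 0.40 (SE 0.08, adjusted p = 0.00045). Against B-gal dsRNA, at 104, 88.5 and 79.3 CPM, RpL39 was lower with IntS4 (-0.44, adjusted p = 0.0043) and IntS6 dsRNA (-0.47, adjusted p = 0.00292) and not called with mts (-0.05) or Pp2A-29B dsRNA (-0.07). No member was called in opposite directions with an Integrator and a PP2A dsRNA.

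**Figure D4:**
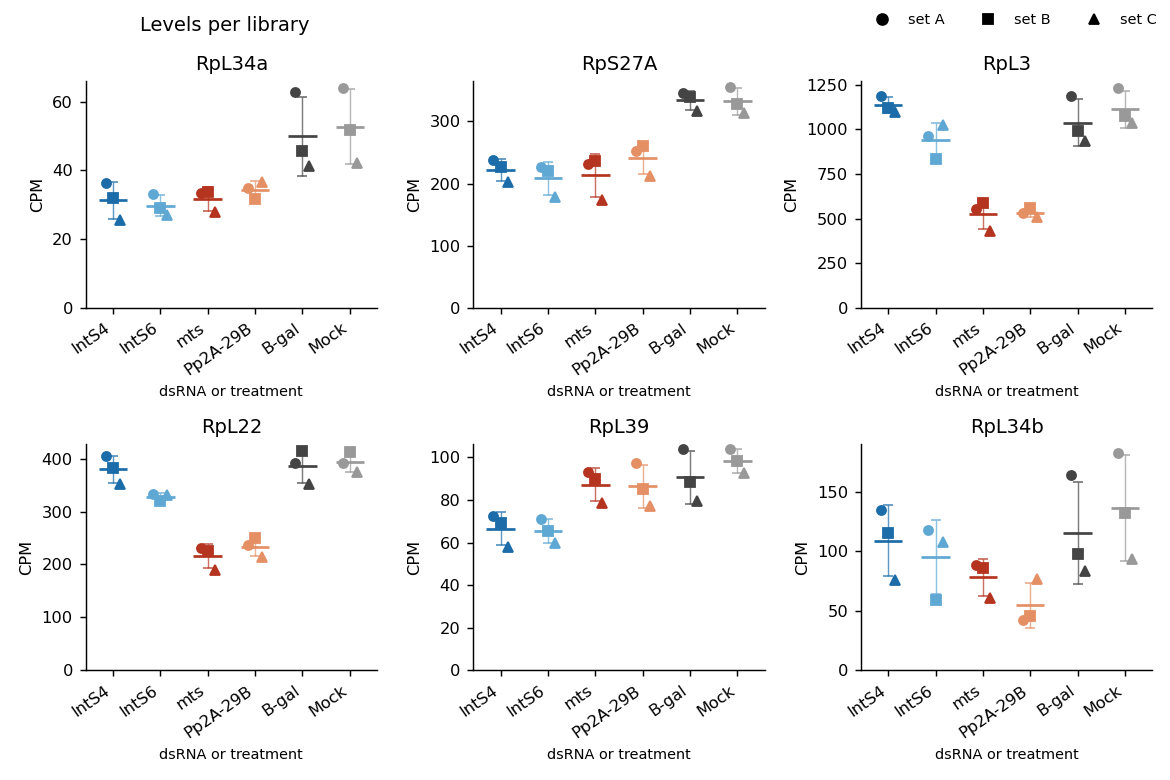
CPM (y axis, from 0) of RpL34a, RpS27A, RpL3, RpL22, RpL39 and RpL34b in each library by group (x axis); points are libraries by set, lines are means and bars are SD (n = 3). RpL3 lies at 433 to 586 CPM with mts and Pp2A-29B dsRNA and at 836 to 1231 CPM in all other libraries, and RpL34b ranges widely within groups.

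Few members passed the test within each pair of dsRNAs. IntS6 against IntS4 dsRNA gave 0 calls in edgeR among 85 members in either direction, where 4.01% of all genes were lower and 2.53% higher. All 85 log2 values were nevertheless negative (median -0.19, against -0.01 over all genes). An unadjusted p under 0.05 was found for 8 of the 85 members and for 1550 of all 8699 genes tested, so the members stood below the background there. DESeq2 called 0 members too. RpL3 had a log2 difference of -0.27 (SE 0.12, adjusted p = 0.23) there. Pp2A-29B against mts dsRNA gave 1 member higher and 0 lower, where 4.81% of all genes were higher and 4.94% lower, with a median of -0.02. That member was RpS19b, the minor copy of the small-subunit gene RpS19, with 4.20, 4.94 and 4.08 CPM with Pp2A-29B dsRNA, against 1.48, 1.98 and 1.61 CPM with mts dsRNA. The groups did not overlap (log2 difference 1.38, SE 0.30, adjusted p = 0.00896), and neither differed from the B-gal libraries, at 3.28, 3.18 and 2.06 CPM, at the threshold (mts -0.74, adjusted p = 0.0558; Pp2A-29B 0.64, adjusted p = 0.0762). With the replicate sets, whose pairing of these libraries is uncertain, as a block 3 members were higher (RpS19b, RpLP0 and RpL7-like), where 8.16% of all genes were.

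Of 14 pairs of copies, formed by name alone (a and b, 1 and 2, or a gene and its -like partner), 7 had both copies at a mean of at least 10 counts. In RpL34 the b copy led, with RpL34a holding 28.0% of the counts of both. In the others the leading copy held more: RpS14a had 82.3%, RpS15Aa 92.2% and RpS19a 99.3% of its pair, while RpL24-like had 3.74%, RpL7-like 3.22% and RpLP0-like 1.32%. Of the remaining pairs, RpS5b had 0.0433% of the counts of RpS5a and RpS5b, and RpL10Aa, RpL22-like, RpL37-2, RpS10a, RpS28a and RpS28-like had 8 counts or fewer in all libraries together. Closely similar copies can share reads that the authors' counting divided, so small shares are uncertain. Fractional counts occurred in 10 and 12 of 18 libraries for RpS14a and RpS14b and in 13 and 11 for RpS15Aa and RpS15Ab. For RpL7-like and RpL7 it was 11 and 14, and for RpL34a and RpL34b 1 and 4. RpS19a had them in 12 libraries and RpS19b in 0. With which gene a divided read was shared is not known here.

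The log2 ratio of both copies within a library was tested between 6 libraries with Integrator or PP2A dsRNAs and the 6 control libraries (B-gal and Mock) by exact permutation, two-sided, over 14 tests, for which 0.00216 is the smallest p possible. The permutation did not use the sets. B-gal and Mock libraries of the same set deviated together (lowest correlation 0.572), so the 6 libraries of a side are not fully independent. What this does to the p-values was not tested. The RpL24-like over RpL24 ratio was -4.59 to -4.30 in the Integrator-labelled libraries, against -4.89 to -4.63 in the control libraries. RpL24, a large-subunit protein at the joint between the subunits, is the abundant copy, and its partner rose relative to it by 0.34 (SE 0.07, n = 6 each, exact p = 0.00216, adjusted 0.0151) with no overlap. For RpS19a over RpS19b the ratio was 6.62 to 7.52 in the Integrator-labelled libraries, against 7.49 to 8.16 in the control libraries. It was lower by 0.65 on average (difference -0.65, SE 0.17, n = 6 each, exact p = 0.00433, adjusted 0.0202), with 1 library inside the control range. RpL7-like over RpL7 was higher by 0.30 (SE 0.05, n = 6 each, exact p = 0.00216, adjusted 0.0151), but RpL7-like shares 1771 of its 1793 exon bases with another gene on its strand, CG34164, and reads of these 2 genes cannot be told apart. RpL34a over RpL34b did not pass (difference -0.44, SE 0.17, n = 6 each, exact p = 0.0303, adjusted 0.0807).

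With PP2A dsRNAs 0 of 7 ratios passed. The nearest were RpLP0-like over RpLP0 (difference 0.37, SE 0.14, n = 6 each, exact p = 0.0281, adjusted 0.0807) and RpS15Aa over RpS15Ab (difference -0.38, SE 0.16, n = 6 each, exact p = 0.0346, adjusted 0.0807). The RpS19a over RpS19b ratio differed between the PP2A subunits, at 7.67 to 8.12 with mts and 6.45 to 6.69 with Pp2A-29B dsRNA, which follows from the RpS19b levels above. With the 3 libraries of B-gal alone as control, the differences for RpL24-like, RpL7-like and RpS19a were 0.32, 0.26 and -0.60. Each of the 3 had the smallest exact p that 6 against 3 libraries allow, 0.0238, which over 14 tests adjusts to 0.111.

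**Figure D5:**
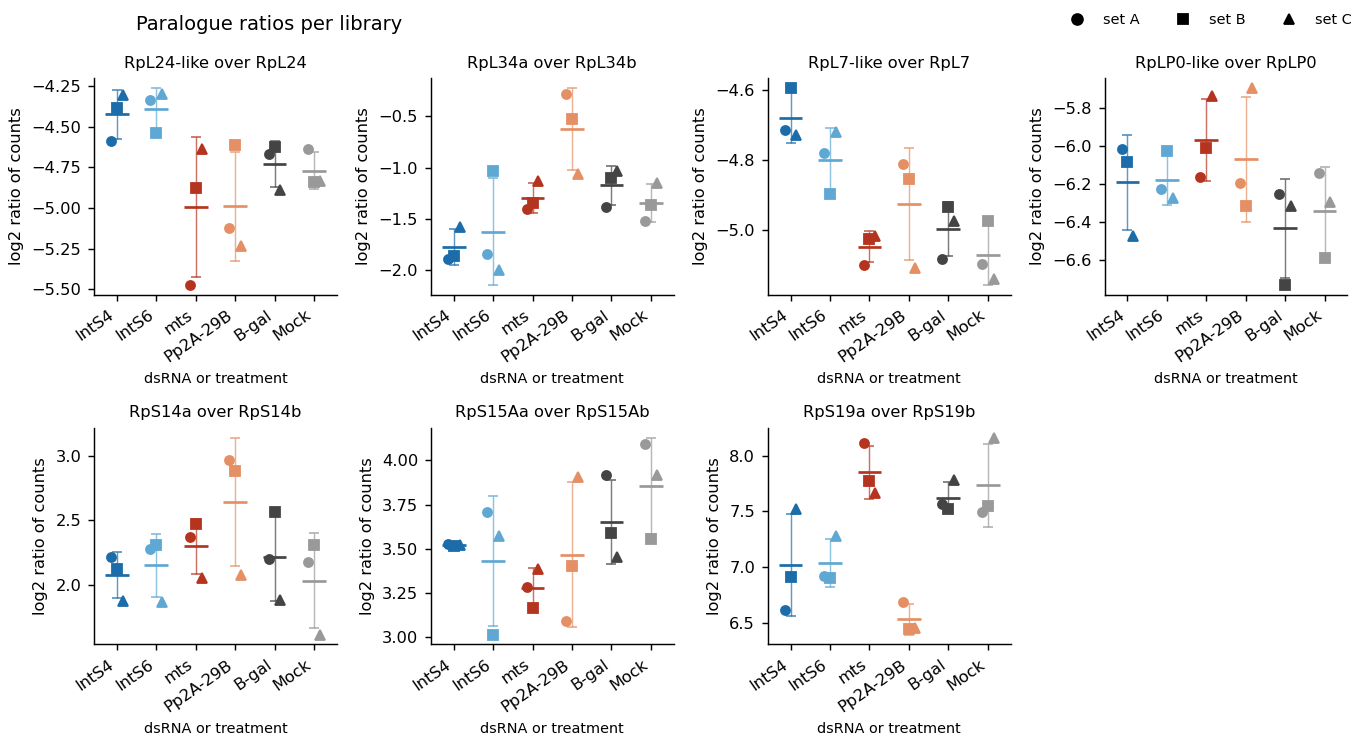
Log2 ratio of counts between the copies of 7 pairs (y axes, different ranges) in each library by group (x axis); points are libraries by set, lines are means and bars are SD (n = 3). RpL24-like over RpL24 lies at -4.59 to -4.30 in the IntS4 and IntS6 libraries and at -4.89 to -4.63 in the B-gal and Mock libraries.

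Members differed in how much they varied between cultures of 1 group. The pooled SD of log2 levels within groups had a median of 0.21 and ran from 0.075 for RpS4, a small-subunit protein, to 0.46 for RpL34b. RpL27A (0.45), RpLP2 (0.44), RpL17 (0.43) and RpL35A (0.39), of the large subunit, followed; these genes were chosen by their spread after it was seen. RpL27A had 259, 160 and 122 CPM in B-gal sets A, B and C and 291, 211 and 141 CPM in Mock, and RpL35A had 180.5, 124 and 95.9 CPM with B-gal dsRNA and 205, 156 and 118 CPM in Mock cells. Set A was thus highest and set C lowest for both genes in both control groups. With Pp2A-29B dsRNA the order turned, with RpL27A at 113.0, 119 and 145 CPM and RpL35A at 68.2, 78.8 and 103 CPM. None of these 4 was called in a comparison with B-gal dsRNA. The log2 fold change of RpL35A with Pp2A-29B dsRNA, for example, was -0.68 (SE 0.27, adjusted p = 0.052).

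Of the features that the naming rule did not use, 28 of the 85 tested members carry 1 or more of 74 snoRNA genes. Between PP2A and Integrator dsRNAs, 17 of these 28 were lower, with a median log2 difference of -0.39, and 19 of the 57 others were lower and 1 higher, with a median of -0.15, where 33.6% of all genes were lower. By exon length, of 42 members above the median of 916 bases 22 were lower (median -0.33), and of 43 at or under it 14 were lower and 1 higher (median -0.14). By subunit, 27 of 47 large-subunit genes were lower and 1 higher (median -0.32), as were 9 of 34 small-subunit genes (median -0.16) and 0 of 4 stalk genes (median 0.01). These are descriptions of overlapping subsets, with no test between them.

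Genes that work with the ribosomal proteins gave a mixed picture. Their counts stand beside 20.2, 19.3, 24.8 and 17.8% of all genes lower with IntS4, IntS6, mts and Pp2A-29B dsRNA, and 27.0, 26.4, 26.6 and 21.0% higher. The small-subunit gene sta was lower with mts (log2 fold change -0.69, adjusted p = 6.19e-06) and Pp2A-29B dsRNA (-0.65, adjusted p = 2.07e-05), and Rack1, a signalling scaffold on the small subunit, was lower with IntS6 (-0.35), mts (-0.49) and Pp2A-29B dsRNA (-0.49). Of 10 tested genes of translation elongation and similar growth-linked type 4 were lower with IntS4, 7 with IntS6 and 5 each with mts and Pp2A-29B dsRNA and 0 higher; Nacalpha, which binds new peptides at the ribosome, fell in all 4 by 0.57, 0.62, 0.76 and 0.58. Among 24 initiation factors 9, 12, 10 and 11 were lower and 4, 3, 4 and 1 higher, in the same order. Of 34 genes of RNA polymerase I and ribosome assembly 10, 9, 23 and 5 were lower and 2, 1, 0 and 0 higher. Non1, a nucleolar GTPase of large-subunit assembly, averaged 71.9 ± 5.91 CPM with mts and 86.7 ± 10.8 CPM with Pp2A-29B dsRNA, against 243 ± 37.6 CPM with B-gal dsRNA (adjusted p = 1.04e-08 and 1.39e-07), and eIF6, which keeps new large subunits apart from small ones, was higher with IntS4 dsRNA (1.07, adjusted p = 6.14e-06). Of 72 mitochondrial ribosomal protein genes, which serve a separate ribosome, 21, 16, 13 and 6 were lower and 1, 1, 3 and 1 higher with IntS4, IntS6, mts and Pp2A-29B dsRNA. The part of them that was lower stood above the share of all genes with IntS4, near it with IntS6 and below it with mts and Pp2A-29B dsRNA. Their median log2 fold changes were -0.32, -0.30, -0.12 and -0.06, beside -0.18, -0.38, -0.52 and -0.53 for the cytosolic genes. Between PP2A and Integrator dsRNAs 28 of the 72 were higher and 4 lower, with a median of 0.26, where 26.0% of all genes were higher and 33.6% lower.

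Regulators tied to ribosomal protein genes were called in both directions. Of 14 tested genes 4, 4, 7 and 7 were lower and 3, 2, 1 and 0 higher with IntS4, IntS6, mts and Pp2A-29B dsRNA, where 20.2, 19.3, 24.8 and 17.8% of all genes were lower and 27.0, 26.4, 26.6 and 21.0% higher. The RNA-binding protein gene larp was lower with all 4 (log2 fold changes -0.35, -0.49, -0.99 and -0.73). REPTOR, a transcription factor held in check by TOR, averaged 281 ± 37.3 CPM with IntS4, 293 ± 16.0 with IntS6, 69.4 ± 9.26 with mts and 87.3 ± 6.72 with Pp2A-29B dsRNA, against 169 ± 41.6 with B-gal dsRNA, and all 4 differences were called. Thor, the translation inhibitor 4E-BP, was higher with IntS4 (log2 fold change 1.90) and IntS6 dsRNA (1.75), and Myc averaged 41.0 ± 5.21 CPM with mts and 59.5 ± 13.0 CPM with Pp2A-29B dsRNA, against 82.3 ± 3.14 CPM with B-gal dsRNA (adjusted p = 3.77e-06 and 0.00653). Of 10 genes known to respond in flies when ribosomal protein dose is lowered 8, 6, 5 and 3 were higher and 0, 1, 1 and 0 lower. AsnS, asparagine synthetase, averaged 143 ± 2.83, 60.1 ± 3.28, 29.4 ± 3.67 and 22.6 ± 0.658 CPM in that order, against 18.4 ± 0.185 CPM with B-gal dsRNA, and the glutathione transferase GstD1 400 ± 34.8, 344 ± 22.9, 951 ± 48.8 and 428 ± 68.3 CPM, against 82.5 ± 8.33 CPM. The largest changes of the list were those of rpr, higher with all 4 (log2 fold changes 6.9, 5.3, 5.3 and 4.8). Its averages were low, at 8.15, 2.66, 2.65 and 1.84 CPM, against 0.0564 CPM with B-gal dsRNA. Some other genes of the list changed less evenly. Xrp1 was higher with IntS4 (log2 fold change 0.48) and mts dsRNA (0.45) and not called with IntS6 or Pp2A-29B dsRNA. Irbp18 was higher with IntS4 (1.39) and IntS6 dsRNA (1.10) only, and crc was called in none. The lower genes were Gcn2 with IntS6 (-0.45) and Gadd45 with mts dsRNA (-0.85). Gadd45 was instead higher with IntS4 (1.06) and IntS6 dsRNA (0.65) and not called with Pp2A-29B dsRNA (0.07).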

How the data were processed

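The values are estimated counts of reads per gene in each library, as the authors deposited them, with no normalisation. Per the submitters' processing notes, reads were trimmed with Trimmomatic 0.39 and counted with featureCounts, with the genome builds dm6 and BDGP6, whose roles and settings are not stated. An aligner was not given in the sources used here. As only 90.1% of values were whole (tolerance 0.005), where the test had been planned for whole counts, all were rounded. All columns were used (0 left out). Symbols and coordinates came from the Ensembl 115 annotation of BDGP6; 127 entries without a symbol took 0.484% of counts.

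The test between groups was that of edgeR 4.0.16, run in R 4.3.3 (quasi-likelihood F test, TMM factors, filterByExpr with a count minimum of 10) in 1 fit of all 18 libraries, over the 8699 genes left, with 12 residual degrees of freedom. Genes with a Benjamini-Hochberg adjusted p under 0.05 over all of these genes were called. The SE of a log2 fold change is its size over the root of F. Tests on simulated data with known changes were run first. Copy ratios, log2 of (count + 0.5) over (count + 0.5), were tested by exact permutation with scipy 1.17.1, adjusted over 14 tests. The pooled SD within groups was taken on log2(CPM + 0.5). DESeq2 1.42.0, other size factors, no filter, a replicate block, other controls and leaving out each library in turn were the alternatives.

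The members, the lists of related genes and the tests were chosen with earlier results of these data known. Genes named by rule were, among those called, the 3 lowest and 3 highest against B-gal dsRNA and the 2 lowest and 2 highest in other comparisons, both copies of each pair, the 4 highest per kilobase, members the filter removed, and up to 2 per related list and comparison; RpL22, RpLP1, RpLP2, RpS4, RpS6, sta and the 5 most variable genes were added after their values were seen. Not every gene that the rule named is reported here.

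Same-set libraries were checked for pairing by the correlation of their deviations from group means over 6050 genes. All 3 correlations were above 0.1 for IntS4 and B-gal (lowest 0.388), IntS6 and B-gal (0.255), mts and B-gal (0.129), B-gal and Mock (0.572) and Pp2A-29B and mts (0.192), and not for Pp2A-29B and B-gal (-0.0172) or IntS6 and IntS4 (0.0836). Between different sets the highest correlation was 0.177 for IntS4 and B-gal, 0.0967 for IntS6 and B-gal and 0.0315 for B-gal and Mock. For mts and B-gal it was 0.225 and for Pp2A-29B and mts 0.186, so the pairing of these last groups is uncertain.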

Additional observations from a re-analysis of the deposited data

Results flagged for a closer look

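Between PP2A and Integrator dsRNAs, a direct test of the difference passed for 37 ribosomal protein genes, of which 36 were lower and 1 was higher, where 33.6% of all genes were lower and 26.0% higher. RpL3, at the peptidyl transferase centre, had a log2 difference of -0.97 there (SE 0.09), RpL24-like one of -0.79 (SE 0.15) and RpL39 one of 0.40 (SE 0.08). RpS19b differed between the dsRNAs against the PP2A subunits, by 1.38 on the log2 scale (Pp2A-29B over mts, SE 0.30). In each case the dsRNAs share the B-gal control, and the difference between them was tested directly rather than inferred from the comparisons with that control.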

How the results depend on the processing

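The median log2 fold change of the ribosomal protein genes against B-gal dsRNA stayed negative with every library left out in turn, at -0.29 to -0.05 with IntS4, -0.47 to -0.24 with IntS6, -0.62 to -0.39 with mts and -0.64 to -0.40 with Pp2A-29B dsRNA. No called result changed direction under an alternative that was run, whereas 2 values near 0 that were not called changed sign with libraries left out: the median for Pp2A-29B against mts dsRNA, at -0.13 to 0.07, and the Integrator difference of the RpS14a over RpS14b ratio, at -0.11 to 0.08 over all alternatives. Counts of members moved more. Left-one-out counts of lower members were 7 to 17 for IntS4, 22 to 56 for IntS6, 42 to 65 for mts, 40 to 71 for Pp2A-29B and 29 to 43 for PP2A against Integrator dsRNA. For IntS4 the lowest came without B-gal set A (7) and without IntS4 set C (8, with 1 higher). Without B-gal set A, 17.8, 17.2, 22.7 and 15.7% of all genes were lower with IntS4, IntS6, mts and Pp2A-29B dsRNA. Shares over all genes are not given for the other left-out libraries, so those counts cannot be set against a background. Leaving out libraries also gave 0 to 1 higher members for IntS4, 1 to 3 higher and 0 to 1 lower for Pp2A-29B against mts (3 and 1 without Pp2A-29B set C), and 1 to 2 higher for PP2A against Integrator dsRNA (2 without IntS6 set B). With the replicate block 29 members were lower with IntS4, 60 with IntS6, 69 with mts and 72 with Pp2A-29B dsRNA, where 23.1, 22.6, 27.3 and 20.9% of all genes were. The sets do not pair the Pp2A-29B with the B-gal libraries, and for mts and B-gal their pairing is uncertain. With that block 1 was higher with Pp2A-29B, 4 were lower for IntS6 against IntS4 (where 6.23% of all genes were, and where the sets do not pair the libraries) and 3 were higher for Pp2A-29B against mts dsRNA. Named genes called without it kept their calls. With Mock, or the mean of Mock and B-gal, as the control, both chosen after the data were seen, 26 members were lower with IntS4 dsRNA, and with that mean 1 was higher with Pp2A-29B dsRNA. Without the filter 1 was higher with Pp2A-29B, 1 lower for Pp2A-29B against mts and 2 higher for PP2A against Integrator dsRNA. Integrator ratios of copies past the threshold numbered 3 to 4 with libraries left out and 0 with B-gal alone as control, where the smallest p possible adjusts to 0.111, and PP2A ratios 0 to 1 (1 without Pp2A-29B set B or set C). The share of ribosomal protein genes with mts dsRNA was -0.87 on the log2 scale over B-gal when rRNA counts entered the total, and -0.72 to -0.49 outside rRNA with libraries left out, beside -0.42 to -0.22 for IntS4, -0.54 to -0.34 for IntS6 and -0.62 to -0.41 for Pp2A-29B dsRNA. The cause of these moves was not tested. With 3 libraries a group, low members such as RpS19b and the counts that divide reads between copies are the least certain.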
